A study of Homo sapiens with 8 samples.

Results

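The 10 amino acid transporter genes described here are SLC7A11, SLC7A5, SLC7A1, SLC3A2, SLC6A9, SLC1A4, SLC1A5, SLC38A1, SLC38A2 and SLC43A1. They were taken by name, with earlier results of these data known. They make up 10 of the 58219 genes listed in each library, and each of the 10 names matched 1 gene. RNA was sequenced from H929 and KMS11, both established lines of t(4;14)-positive multiple myeloma (MM), a malignancy of plasma cells. Each line was cultured in the same medium and exposed for 24 h to 2 µM fluvastatin or to ethanol, the solvent control. Fluvastatin is a statin, an inhibitor of the rate-limiting enzyme of the mevalonate pathway. The 4 groups, H929 ethanol, H929 fluvastatin, KMS11 ethanol and KMS11 fluvastatin, had 2 libraries each, so that 8 libraries were compared. The study sequenced these cells to find genes that respond to the statin in t(4;14)-positive disease.

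Cells bring in amino acids through families of membrane proteins that each carry a set of substrates. SLC7A5 (LAT1) and SLC7A11 (xCT) are light chains that work bound to the heavy chain SLC3A2, LAT1 as an exchanger of large neutral amino acids and xCT as the antiporter that imports cystine for glutathione synthesis in exchange for glutamate. SLC1A5 (ASCT2) and SLC1A4 (ASCT1) exchange small neutral amino acids, glutamine among them for SLC1A5 and serine for SLC1A4. SLC38A1 and SLC38A2 (SNAT1 and SNAT2) take up neutral amino acids such as glutamine and alanine together with sodium, SLC6A9 (GLYT1) takes up glycine, SLC7A1 (CAT1) takes up cationic amino acids such as arginine, and SLC43A1 (LAT3) carries branched-chain amino acids without a heavy chain. Several of these genes are known targets of ATF4, the transcription factor of the integrated stress response, which with a C/EBP partner binds a composite element. Plasma cells make large amounts of antibody and have a high demand for amino acids.

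The promoters of 4 of the genes are shown because these genes rose in H929 and their starts differ in that composite element. RefSeq windows of 250 bases before to 50 bases after a gene start (GRCh38.p14) were found for 9 of the 10 genes, SLC7A11 being the other, and comprised 16 windows. They were searched on both strands for TGATGNAA, the ATF4 and C/EBP composite element, for TGACNNNGC, the core of the antioxidant response element bound by NRF2, and for CACGTG, the E-box bound by MYC and MAX. These patterns do not overlap in the windows described. The first 280 bases are printed 5′ to 3′ along the gene, and capitals mark the match to TGATGNAA on either strand.
SLC1A4 (chr2:64989149-64989428, plus strand): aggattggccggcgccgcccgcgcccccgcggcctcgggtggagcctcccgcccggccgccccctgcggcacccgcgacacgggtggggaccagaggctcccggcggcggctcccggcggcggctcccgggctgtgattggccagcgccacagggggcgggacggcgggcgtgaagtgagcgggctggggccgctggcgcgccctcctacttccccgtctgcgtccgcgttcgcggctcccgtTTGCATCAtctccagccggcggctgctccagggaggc
SLC7A1 (chr13:29595659-29595938, minus strand): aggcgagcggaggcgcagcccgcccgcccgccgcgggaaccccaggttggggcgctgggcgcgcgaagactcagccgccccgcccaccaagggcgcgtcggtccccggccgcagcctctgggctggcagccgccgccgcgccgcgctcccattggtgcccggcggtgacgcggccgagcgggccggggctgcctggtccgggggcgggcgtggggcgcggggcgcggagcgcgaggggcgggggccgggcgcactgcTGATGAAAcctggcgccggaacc
SLC38A2 (chr12:46372744-46373023, minus strand): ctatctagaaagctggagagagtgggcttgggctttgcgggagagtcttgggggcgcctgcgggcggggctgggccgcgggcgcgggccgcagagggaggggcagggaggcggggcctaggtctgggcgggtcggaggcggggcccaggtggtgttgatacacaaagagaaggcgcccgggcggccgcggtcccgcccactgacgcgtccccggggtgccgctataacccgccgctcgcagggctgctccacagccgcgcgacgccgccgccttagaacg
SLC6A9 (chr1:44031433-44031712, minus strand): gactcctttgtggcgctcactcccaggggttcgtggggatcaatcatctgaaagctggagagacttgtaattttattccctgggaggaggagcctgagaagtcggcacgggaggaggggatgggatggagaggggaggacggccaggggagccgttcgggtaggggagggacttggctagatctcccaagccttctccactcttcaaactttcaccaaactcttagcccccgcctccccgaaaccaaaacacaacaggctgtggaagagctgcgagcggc
The element lay on the minus strand across the start of SLC1A4, as TTGCATCA from base -7 to base 1, counting from the first transcribed base as 1 and without a base 0. In SLC7A1 it read TGATGAAA and lay at bases 8 to 15. Neither SLC38A2 nor SLC6A9 held it in this window, which says only that these letters were not there. Of the 16 windows, 5 held TGATGNAA, 1 each for SLC1A4, SLC7A1, SLC38A1, SLC3A2 and SLC1A5, while 3.62% of 35116 promoter windows of the same length held it. TGACNNNGC was found in 4 of the 16 windows, those of SLC7A5, SLC7A1, SLC3A2 and SLC1A5, and in 13.3% of all. CACGTG was found in 3, those of SLC7A5, SLC1A5 and SLC43A1, and in 7.26% of all. The starts of SLC1A4, SLC38A1, SLC3A2 and SLC1A5 that held the composite element lie inside the annotated span of the gene, downstream of its 5′ end. These shares are descriptions, and no binding was measured.

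Libraries held from 26702515 to 41910446 counts, and replicates differed by more than counting error in every group. The spread was widest in KMS11 fluvastatin, where the log2 ratio of the replicates had an SD of 0.263 across well-expressed genes, against 0.141 to 0.202 in the other groups. Of 9 plasma cell markers, 8 were lower in KMS11 than in H929 in ethanol and none was higher (edgeR, adjusted p under 0.05). Of all genes tested, 36.4% were lower and 35.6% higher. The ranges that follow cover all libraries of a line, ethanol and fluvastatin together. IRF4 was at 815 to 1031 CPM (counts scaled by TMM and divided by library size) in KMS11 against 1977 to 2057 in H929. XBP1 was at 741 to 1035 CPM in KMS11 against 2628 to 3384 in H929, and CD38 was at 0.104 to 0.301 against 165 to 185. FGFR3 and NSD2, which t(4;14) deregulates, were expressed in both. Of 6 markers of other cells, CD14 was at 0 in every library and COL1A1 and HBB were below 1 CPM, whereas EPCAM was at 60.8 to 68.7 CPM in KMS11 against at most 0.044 in H929, and PECAM1 (24.7 to 28.2 against 4.23 to 6.48) and CD3E (4.08 to 9.91 against 0.361 to 0.821) were higher in H929. Summed, these 6 markers came to 29.6 to 38.5 CPM in H929 and 65.9 to 75.1 in KMS11, and the part of these differences in the results between the lines was not tested.

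In ethanol, the transporters spanned a wide range of levels. Levels of different genes are compared in TPM, which RSEM scales by length. In H929, SLC1A5 (70.2 ± 10.6 TPM, SD, n = 2) and SLC3A2 (69.5 ± 9.61) were highest and overlapped each other, followed by SLC38A1 (54.1 ± 0.403). SLC7A5 (41.5 ± 7.38), SLC38A2 (41.4 ± 6.85) and SLC1A4 (37.1 ± 7.28) came next, and their libraries overlapped. SLC7A1 (6.79 ± 0.827) and SLC43A1 (5.96 ± 0.615) also overlapped, and below them lay SLC6A9 (3.04 ± 1.03) and SLC7A11 (1.39 ± 0.240), each apart from its neighbours.

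In KMS11, the heavy chain SLC3A2 stood alone at the top with 143 ± 6.75 TPM, and SLC38A1 followed at 76.6 ± 4.72. SLC38A2 (48.7 ± 5.08) and SLC7A5 (46.8 ± 1.09) overlapped, and SLC1A5 (40.4 ± 2.58), SLC1A4 (25.8 ± 0.0495) and SLC7A1 (8.26 ± 0.700) then lay apart from one another. At the bottom were SLC43A1 (1.84 ± 0.297), SLC7A11 (1.31 ± 0.0990) and SLC6A9 (0.235 ± 0.120). SLC7A11 and SLC6A9 were thus the 2 lowest genes in both lines. Summed over the 10 genes, the level in ethanol was 362.6 and 299.2 TPM in H929 and 407.3 and 377.9 TPM in KMS11.

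**Figure D1:**
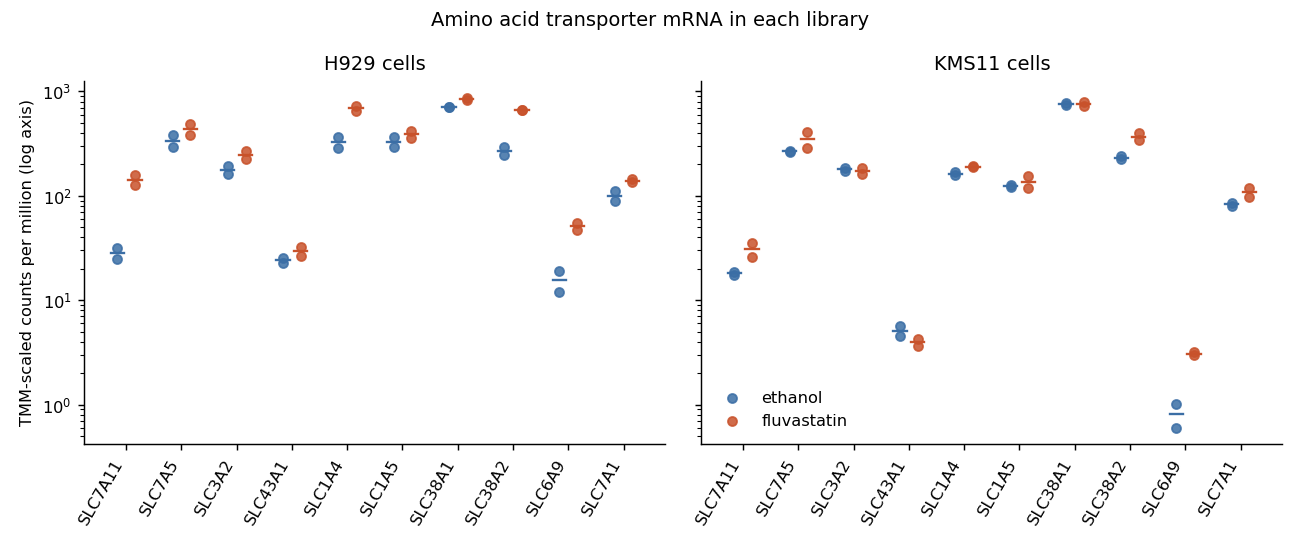
Level of each transporter in each library, as TMM-scaled CPM on a log axis, with points for libraries, horizontal lines for group means of 2, blue for ethanol and red for fluvastatin. In H929 the fluvastatin points of SLC7A11, SLC6A9, SLC1A4 and SLC38A2 lie above the ethanol points without overlap, and SLC6A9 in KMS11 lies between 0.602 and 3.18 CPM.

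Between the lines in ethanol, 5 of the 10 genes were lower in KMS11 and none was higher, while 72% of the 13129 protein-coding genes tested differed, with 36.4% lower and 35.6% higher. Calls were made in edgeR by the quasi-likelihood F test, at an adjusted p under 0.05 after Benjamini-Hochberg correction over every gene tested. The glycine transporter SLC6A9 was at 19.1 and 12 CPM in H929 and at 1.02 and 0.602 CPM in KMS11, so that the lines did not overlap. In bulk RNA, a lower level in each cell and fewer cells that express a gene cannot be told apart. Its log2 difference, KMS11 minus H929, was -4.25 (SE 0.29, adjusted p = 7.96e-07). SLC43A1 differed by -2.24 (SE 0.17, adjusted p = 1.8e-06), SLC1A5 by -1.39 (SE 0.15, adjusted p = 1.93e-05), SLC1A4 by -0.996 (SE 0.12, adjusted p = 4.06e-05) and SLC7A11 by -0.64 (SE 0.17, adjusted p = 0.00789).

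The 5 others were SLC7A5, SLC7A1, SLC38A2, SLC38A1 and SLC3A2, with log2 differences from -0.33 to 0.08. The split of calls changed when each library's trend with GC content was removed as an offset. GC content is the share of G and C bases over all annotated transcripts of a gene. With the offset, 76% of all genes tested differed, 37.8% lower and 38.2% higher, and of the 10 genes 7 were lower in KMS11 and 2 were higher, SLC3A2 (0.44, adjusted p = 0.000145) and SLC7A5 (0.52, adjusted p = 1.3e-05), the latter in place of -0.33. The call of SLC7A11 was lost without H929 ethanol replicate 1 or KMS11 ethanol replicate 2 and on the TPM scale, and 8 genes passed without H929 ethanol replicate 2.

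In H929, fluvastatin raised the mRNA of 7 of the 10 transporters and lowered none, while 42% of all genes tested changed, with 22.7% higher and 19.3% lower. All 10 genes had a positive log2 fold change, with a median of 0.472 against 0.022 over all genes tested. The cystine antiporter light chain SLC7A11 rose most, and it was followed by the glycine transporter SLC6A9, the glutamine and alanine transporter SLC38A2 and the serine transporter SLC1A4. Cell type markers also changed in H929. Of 9 plasma cell markers, 4 fell, SDC1 (-1.08, adjusted p = 0.000862), MZB1 (-1.02, adjusted p = 0.00864), SLAMF7 (-0.98, adjusted p = 0.000299) and XBP1 (-0.34, adjusted p = 0.00834), and 2 rose, JCHAIN (0.36, adjusted p = 0.0217) and PRDM1 (0.32, adjusted p = 0.0152). Of the 4 markers of other cells that could be tested, CD3E rose, from 4.08 and 4.40 CPM to 8.61 and 9.91 (1.13, adjusted p = 0.00309). Their part in the rise of the transporters was not tested.

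SLC7A11 (chromosome 4 of GRCh38, 138164097 to 138242349) was at 31.4 and 25.0 CPM in ethanol and at 127 and 157 CPM in fluvastatin. Both treated libraries thus lay above both controls by far more than the replicates differed. The log2 fold change was 2.33 (SE 0.18, adjusted p = 1.34e-05 in the edgeR test), a 5.04-fold rise.

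SLC6A9 (chromosome 1, 43991500 to 44031467) was at 19.1 and 12 CPM in ethanol and at 55.3 and 46.8 CPM in fluvastatin, without overlap. Its log2 fold change was 1.71 (SE 0.22, adjusted p = 0.000278). The deposited level of SLC6A9 could hold reads of CCDC24, which overlaps it on the opposite strand, although the library kit marked strand and CCDC24 had at most 192 counts in any library.

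SLC38A2 (chromosome 12, 46358188 to 46372773) was at 296 and 245 CPM in ethanol and at 665 and 661 CPM in fluvastatin. Here the treated libraries were nearly equal and above both controls. The log2 fold change was 1.29 (SE 0.12, adjusted p = 3.23e-05). Its paralog SLC38A1 (chromosome 12, 46183063 to 46270017) was at 709.50 and 709.11 CPM in ethanol and at 821 and 874 CPM in fluvastatin. It rose by only 0.26 (SE 0.09, adjusted p = 0.0405), a call that was lost without any 1 of the 4 H929 libraries.

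SLC1A4 (chromosome 2, 64988477 to 65023865) was at 365 and 287 CPM in ethanol and at 732 and 653 CPM in fluvastatin, again without overlap. Its log2 fold change was 1.09 (SE 0.12, adjusted p = 0.000101). Its relative SLC1A5, the glutamine exchanger, was at 363 and 294 CPM in ethanol and at 417 and 356 CPM in fluvastatin, where the ranges overlapped. The fold change of SLC1A5 was 0.24 (SE 0.15, adjusted p = 0.232).

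The arginine transporter SLC7A1 was at 111 and 89.7 CPM in ethanol and at 144 and 135 CPM in fluvastatin, and it rose by 0.48 (SE 0.12, adjusted p = 0.0118). The heavy chain SLC3A2 was at 195 and 161 CPM in ethanol and at 268 and 223 CPM in fluvastatin, and it rose by 0.46 (SE 0.13, adjusted p = 0.0139). Neither pair of ranges overlapped, but both calls were lost without H929 ethanol replicate 2 (adjusted p = 0.0997 for SLC7A1 and 0.11 for SLC3A2) and again with H929 fluvastatin replicate 1 omitted (0.0564 and 0.106), so that 4 genes then passed the threshold. The LAT1 light chain SLC7A5 was at 379 and 291 CPM in ethanol and at 487 and 381 CPM in fluvastatin, where the lower treated library barely exceeded the higher control, with a log2 fold change of 0.37 (SE 0.18, adjusted p = 0.133). SLC43A1 had 0.28 (SE 0.16, adjusted p = 0.193).

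In KMS11, 3 of the 10 transporters rose, SLC6A9, SLC7A11 and SLC38A2, and none fell, while 3.12% of all genes tested changed, with 2.58% higher and 0.533% lower. The median of the 10 was 0.298 against 0.004 over all genes tested, and 8 had a positive log2 fold change. At an unadjusted p under 0.05 there were 4, the fourth being SLC7A1, all of them positive, and DESeq2 called 3 higher and 0 lower. No share over all genes is given for that cut or for DESeq2, so neither count can be set against a background. Of the 9 plasma cell markers, 1 changed in KMS11, XBP1 (-0.40, adjusted p = 0.0349), and none of the 4 tested markers of other cells passed. SLC6A9 was at 1.02 and 0.602 CPM in ethanol and at 3.18 and 2.98 CPM in fluvastatin, from counts of 39 and 22 against 88 and 114. The groups did not overlap, and the log2 fold change was 1.91 (SE 0.31, adjusted p = 0.0113). CCDC24, which overlaps SLC6A9, had from 7 to 192 counts in a library, so all 4 of these SLC6A9 counts were below its highest. Whether reads of CCDC24 had a part in this rise or in the difference in ethanol was not tested.

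SLC38A2 was at 238 and 227 CPM in ethanol and at 339 and 398 CPM in fluvastatin, above both controls. It rose by 0.66 (SE 0.11, adjusted p = 0.0146). SLC7A11 was at 18.8 and 17.5 CPM in ethanol and at 25.9 and 35.5 CPM in fluvastatin, also without overlap but with a wide gap between the treated libraries. Its log2 fold change was 0.76 (SE 0.17, adjusted p = 0.0477), close to the threshold.

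The other 7 genes did not pass the test in KMS11. SLC7A1 was at 85.5 and 80.3 CPM in ethanol and at 118 and 98.2 CPM in fluvastatin, with a log2 fold change of 0.38 (SE 0.12, adjusted p = 0.126). SLC1A4, which rose in H929, was at 159 and 168 CPM in ethanol and at 192 and 188 CPM in fluvastatin, with 0.22 (SE 0.12, adjusted p = 0.315). SLC7A5 was at 262 and 271 CPM in ethanol and at 413 and 287 CPM in fluvastatin, with a log2 fold change of 0.39 (SE 0.18, adjusted p = 0.245). KMS11 fluvastatin replicate 1 lay well above the other 3 libraries.

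SLC1A5 had 0.13 (SE 0.15), SLC38A1 had 0.02 (SE 0.09), SLC3A2 had -0.06 (SE 0.12) and SLC43A1, at 3.65 to 5.69 CPM, had -0.37 (SE 0.18). The sign was not settled for SLC1A5 and SLC38A1, which turned negative in 5 and 7 of the 15 alternatives. The count of 3 rested on the KMS11 controls, since 1 gene, SLC6A9, passed without KMS11 ethanol replicate 1 and 0 passed without KMS11 ethanol replicate 2, and on the TPM scale with limma 0 passed.

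**Figure D2:**
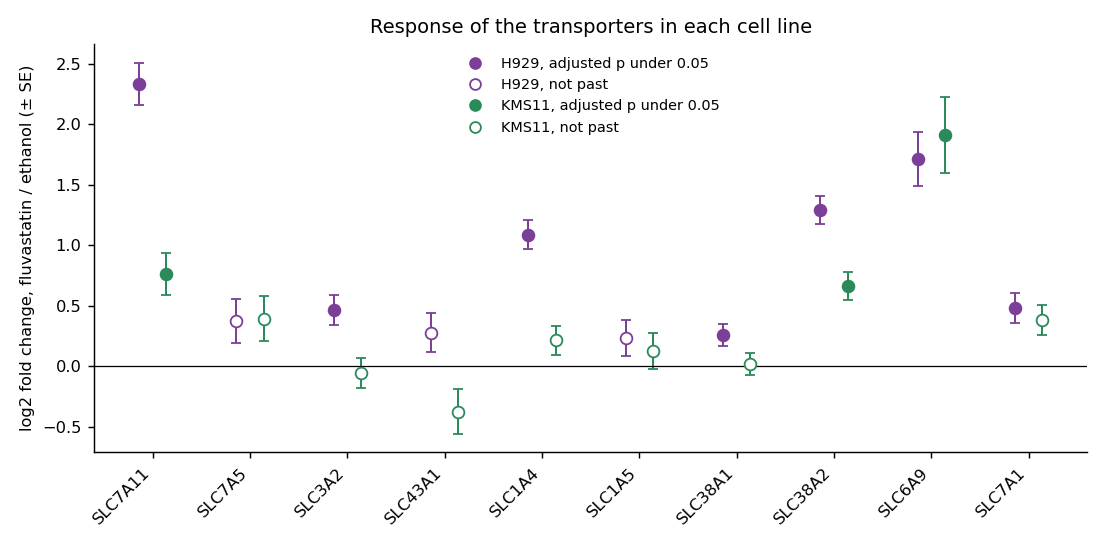
Log2 fold change of each transporter, fluvastatin over ethanol, in H929 (purple) and KMS11 (green), with bars of 1 SE from the edgeR fit and filled points for an adjusted p under 0.05. SLC7A11, SLC1A4 and SLC38A2 lie higher in H929 than in KMS11, while SLC6A9 lies at 1.71 and 1.91.

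The response differed between the lines for 3 of the 10 genes, each of which responded more in H929, while 23.2% of all genes tested differed, with 11.5% in that direction and 11.7% in the other. The difference, KMS11 minus H929, was -1.57 for SLC7A11 (SE 0.24, adjusted p = 0.00223), -0.87 for SLC1A4 (SE 0.17, adjusted p = 0.00628) and -0.63 for SLC38A2 (SE 0.16, adjusted p = 0.0207). The first 2 passed in all 19 alternatives, and SLC38A2 passed in 13. For SLC6A9 the difference was 0.20 (SE 0.38, adjusted p = 0.747), which is too imprecise to show that the lines responded alike. SLC3A2, with -0.52 (SE 0.18, adjusted p = 0.0578), missed the threshold and passed it in 11 of the 19 alternatives.

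When both lines entered a fit with terms for line and treatment, 5 of the 10 genes rose and none fell, while 10.4% of all genes tested changed, with 6.5% higher and 3.93% lower. These were SLC6A9 (1.79, SE 0.20, adjusted p = 0.00255), SLC7A11 (1.55, SE 0.31, adjusted p = 0.0222), SLC38A2 (0.98, SE 0.14, adjusted p = 0.00713), SLC1A4 (0.65, SE 0.18, adjusted p = 0.0492) and SLC7A1 (0.43, SE 0.10, adjusted p = 0.032). SLC6A9 passed in all 19 alternatives, SLC38A2 in 18 and SLC7A11 in 14, whereas SLC7A1 and SLC1A4 passed in 8 and 7. Between 2 and 4 genes passed when any library other than KMS11 fluvastatin replicate 2 was left out, 2 when H929 fluvastatin replicate 1 or either H929 control was omitted, and 3 without H929 fluvastatin replicate 2, KMS11 ethanol replicate 1 or KMS11 ethanol replicate 2.

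The transcripts of the 10 genes ranged in GC content from 35.9% in SLC7A11 to 60.6% in SLC6A9, and 1 library stood apart in its trend with GC content. At the 60.4% of SLC7A5, the trend lay at 0.183 on the log2 scale in KMS11 fluvastatin replicate 1 and at -0.354 in replicate 2, against -0.468 and -0.46 in the KMS11 controls. The H929 libraries lay between 0.044 and 0.51 at this GC content. With the trends removed, the KMS11 fold change of SLC7A5 went from 0.39 to -0.01 and that of SLC1A5 from 0.13 to -0.19. SLC3A2 (-0.26, adjusted p = 0.0357) and SLC43A1 (-0.71, adjusted p = 0.00984) then passed as lower in KMS11, and SLC7A1 (0.26, adjusted p = 0.0463) joined SLC6A9, SLC7A11 and SLC38A2 as higher, so that the split was 4 higher and 2 lower in place of 3 and 0. Of all genes tested, 12.5% then changed in KMS11, with 6.28% higher and 6.25% lower.

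In H929 all 10 genes were past the threshold and higher with the same offset, as were 28.6% of all genes tested, while 26.7% were lower and 55.2% changed in either direction. The responses of SLC7A11 and SLC38A2, whose transcripts are low in GC, were 0.85 and 0.74 in KMS11 and 2.15 and 1.15 in H929 with the offset. Of the 10 genes, 8 then differed between the lines in their response, each more positive in H929, while 32.9% of all genes tested differed, with 17.8% in that direction and 15.1% in the other. SLC7A5 went from a difference of 0.02 to -0.56 (adjusted p = 0.000666). SLC6A9 and SLC38A1 were the 2 that did not pass. Whether GC content had a part in the values without the offset was not otherwise tested.

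**Figure D3:**
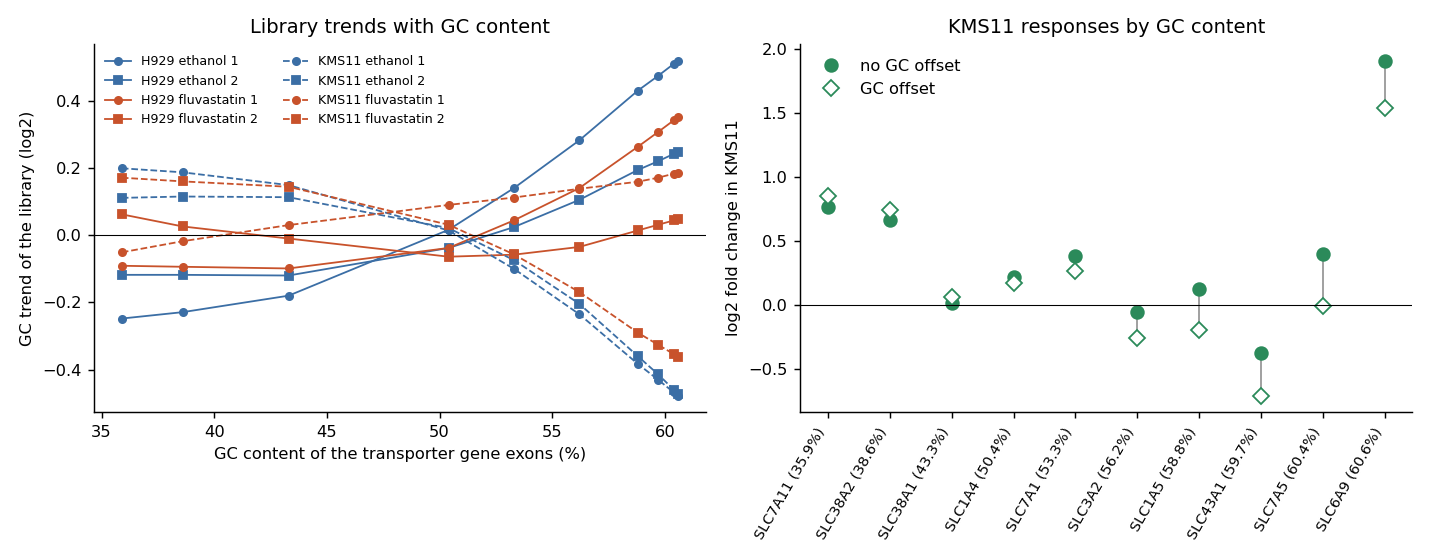
Left, trend of each library's log2 counts with GC content over transcripts, read at the GC content of the 10 genes (solid lines H929, dashed lines KMS11, blue ethanol, red fluvastatin, circles replicate 1, squares replicate 2). Right, KMS11 log2 fold change of each gene in order of GC content without (filled) and with (open) the offset. The 5 genes of highest GC content move down, SLC7A5 from 0.39 to -0.01, and SLC7A1 (0.38 to 0.26) and SLC1A4 (0.22 to 0.17) move down by less.

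SLC3A2 was followed further because its TPM and its counts moved differently. In KMS11 it was at 174 and 186 CPM in ethanol and at 183 and 163 CPM in fluvastatin, with overlap, whereas its TPM was 147.5 and 138.0 in ethanol and 95.0 and 119.0 in fluvastatin, without overlap. The effective length that RSEM gave the gene, an average over the transcripts it assigned reads to, was 822 and 869 bases in the KMS11 controls and 1117 and 872 bases in fluvastatin. The longer value belonged to KMS11 fluvastatin replicate 1, the library apart in its GC trend. In H929 the effective length was 1204 and 1193 bases in ethanol and 1116 and 1050 bases in fluvastatin, so that SLC3A2 was 1.04 log2 units higher in KMS11 than in H929 ethanol on the log2(TPM + 0.1) scale, where the median of all genes was itself at 0.464, but 0.02 higher on the count scale.

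As SLC3A2 pairs with its light chains, its TPM was divided by the summed TPM of SLC7A5, SLC7A6, SLC7A7, SLC7A8, SLC7A10 and SLC7A11. The ratio was 1.23 and 1.32 in H929 ethanol and 1.51 and 1.54 in H929 fluvastatin. In KMS11 it was 2.28 and 2.19 in ethanol and 1.18 and 1.86 in fluvastatin. The direction was thus opposite in the lines, without overlap in either, but in KMS11 the treated libraries differed from each other by more than the nearer one differed from the controls, and no test of 2 against 2 libraries can give a permutation p below 0.333.

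SLC7A5 made up most of the light chain level in every library, at 73.0% to 80.6% of the summed TPM. The share of SLC7A11 was 2.5% and 2.6% in H929 ethanol and 8.5% and 12.3% in H929 fluvastatin, the highest of any group. In KMS11 it was 2.1% and 2.0% in ethanol and 2.0% and 3.7% in fluvastatin, where the groups overlapped. Fragments of SLC7A5 can be shared with its partial copies, but SLC7A5P1 had only 3 to 12 counts and SLC7A5P2 had 0 in every library. Summed over the 10 transporters, the level in fluvastatin was 528.0 and 496.0 TPM in H929, above both controls, and 365.4 and 399.8 TPM in KMS11, which overlapped the controls.

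**Figure D4:**
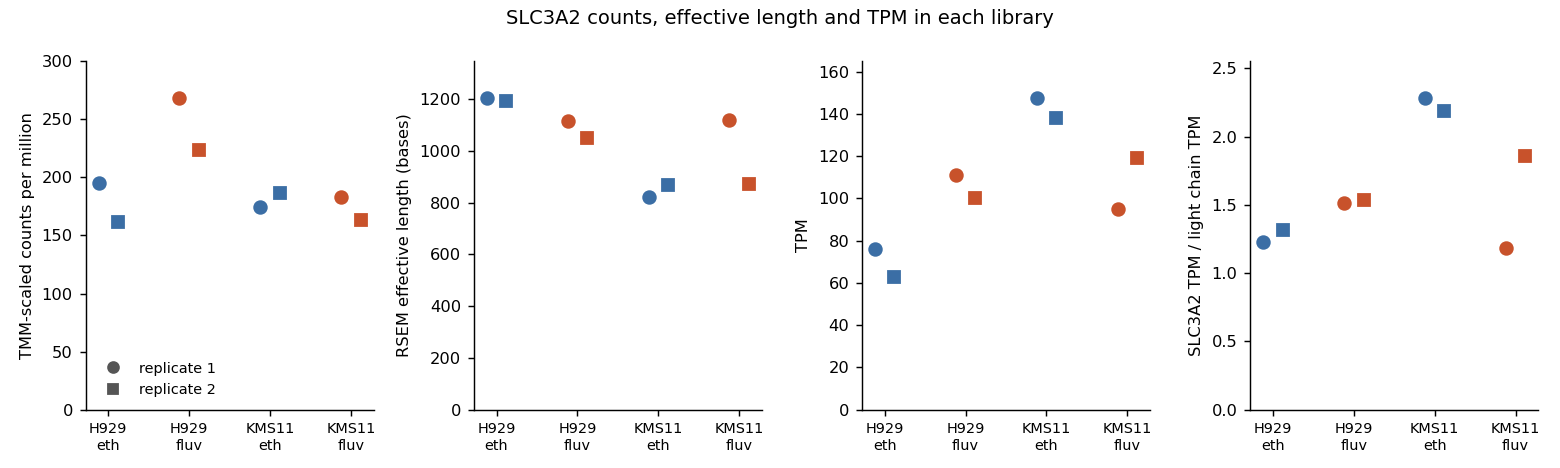
SLC3A2 in each library (circles replicate 1, squares replicate 2, blue ethanol, red fluvastatin), from left to right as TMM-scaled CPM, RSEM effective length in bases, TPM, and TPM over the summed TPM of 6 light chains. In KMS11 the counts overlap between treatments, and replicate 1 in fluvastatin has an effective length of 1117 bases and a ratio of 1.18.

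Other amino acid transporters were counted beside the 10 genes. Of 51 further genes that carry amino acids at the plasma membrane, in lysosomes and other endomembranes or in mitochondria, 30 were expressed highly enough to be tested. SLC1A1 and SLC6A15 were among them through KMS11 and had 0 counts in every H929 library, so that 28 could be measured in H929. In H929, 2 of the 28 rose and 11 fell, beside 22.7% and 19.3% of all genes, and their median was -0.371, against 0.472 for the 10 genes and 0.022 over all genes. Both lists were chosen with earlier results of these data known, so the contrast between them is a description only. The falls were of SLC16A10 (TAT1), a carrier of aromatic amino acids (-1.54, SE 0.14, adjusted p = 3.11e-05), of SLC7A2 (CAT2), a cationic amino acid transporter like SLC7A1 (-1.04, SE 0.14, adjusted p = 0.000311), of SFXN1, which carries serine into mitochondria (-0.99, SE 0.09, adjusted p = 4.43e-05), and of 8 others. SLC7A7, a light chain of SLC3A2, rose by 1.23 (SE 0.31, adjusted p = 0.0107) but from 0.34 and 0.60 CPM to 1.098 and 1.087. Without H929 ethanol replicate 1, 8 passed.

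In KMS11, none of the 30 rose and 1 fell, beside 2.58% and 0.533% of all genes. The 1 that fell was SLC7A2, from 39.7 and 42.2 CPM to 22.1 and 25.3 (-0.79, SE 0.13, adjusted p = 0.0105). At an unadjusted p under 0.05 there were 7 of the 30. The median of the 30 was -0.081. SLC7A1 and SLC7A2 thus took opposite signs in both lines, although SLC7A1 passed in H929 only. With DESeq2, 0 were higher and 3 lower in KMS11, and without KMS11 fluvastatin replicate 2, 4 were higher and 3 lower, while none passed without either control library. With both lines together, 0 of the 30 rose and 4 fell (SLC7A2, SLC16A10, SFXN1 and SFXN2), with 9 at an unadjusted p under 0.05 and 7 called by DESeq2, and 1 gene passed when any 1 of the H929 libraries was left out. Of all genes tested, 6.5% rose and 3.93% fell with both lines together. No share over all genes is given for the counts at an unadjusted p or by DESeq2, so these cannot be set against a background. The median over the 30 genes was -0.22 against 0.407 for the 10 genes. For their response, 9 of the 28 differed between the lines, beside 23.2% of all genes, and 8 of the 9 were more positive in KMS11. Leaving out H929 ethanol replicate 1 or KMS11 ethanol replicate 1 gave a count of 3, leaving out H929 fluvastatin replicate 2 gave 4, and leaving out H929 fluvastatin replicate 1 or KMS11 ethanol replicate 2 gave 5.

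**Figure D5:**
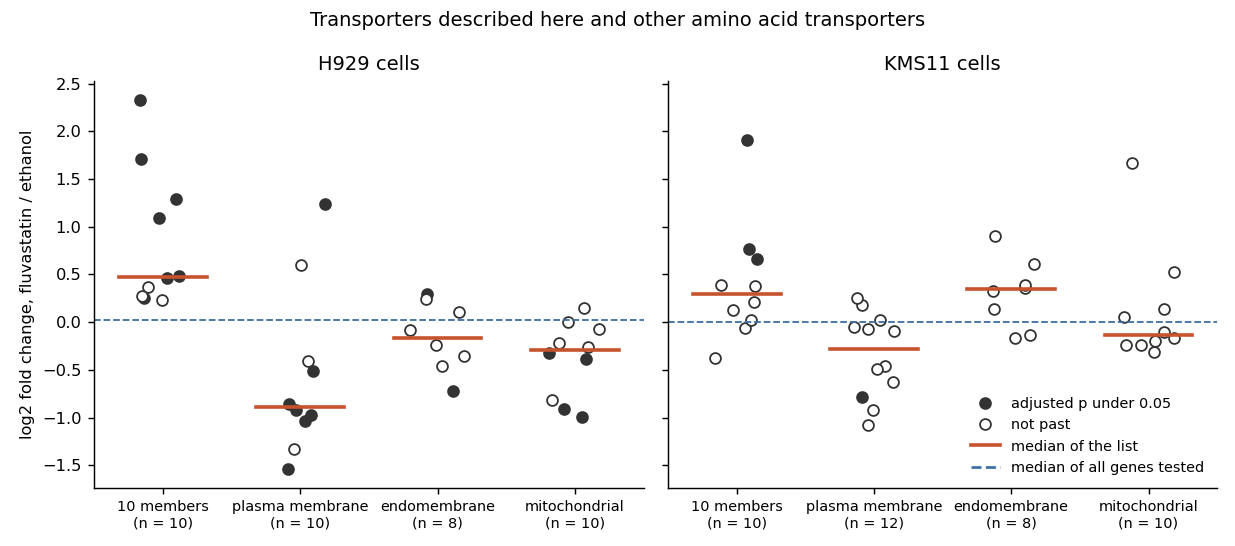
Log2 fold change, fluvastatin over ethanol, of the 10 transporters and of the other amino acid transporters by location in H929 (left, 28 genes) and KMS11 (right, 30 genes), with a point for each gene, filled for an adjusted p under 0.05, a red line for the list median and a dashed line for the median of all genes tested. In H929 the 10 genes lie above 0, and most of the other genes lie below 0.

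Of 18 genes listed as possible regulators, 17 were tested, and 12 rose and 2 fell in H929, beside 22.7% and 19.3% of all genes. In KMS11, 3 rose and none fell, DDIT3, SESN2 and BACH1, beside 2.58% and 0.533% of all genes. With both lines together 8 rose and none fell, beside 6.5% and 3.93%. ATF4, the activator of several transporter genes, was at 425 and 342 CPM in H929 ethanol and at 674 and 571 CPM in H929 fluvastatin (0.70, SE 0.13, adjusted p = 0.00166). In KMS11 it was at 282 and 249 CPM in ethanol and at 324 and 334 CPM in fluvastatin (0.31, SE 0.13, adjusted p = 0.19). The difference between the lines in its response, KMS11 minus H929, was -0.39 (SE 0.18, adjusted p = 0.138) and did not pass.

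The regulators with the largest changes across both lines were SESN2, a stress-induced inhibitor of mTORC1 signalling (1.64, SE 0.20, adjusted p = 0.00366), DDIT3 or CHOP (1.51, SE 0.20, adjusted p = 0.00525), DDIT4 (1.04, SE 0.25, adjusted p = 0.0358), TRIB3 (0.88, SE 0.17, adjusted p = 0.0197) and CEBPB (0.59, SE 0.14, adjusted p = 0.0382). MYC, which is known to drive expression of SLC7A5 and SLC1A5, rose by 0.39 in H929 (adjusted p = 0.0138) and had -0.44 in KMS11 (adjusted p = 0.0539). NFE2L2 (NRF2) and BACH1, an activator and a repressor of SLC7A11, had 0.40 (adjusted p = 0.00499) and 0.41 (adjusted p = 0.0184) in H929. In KMS11, NFE2L2 had 0.10 (adjusted p = 0.507) and BACH1 had 0.65 (adjusted p = 0.0165). KEAP1, also on the list, had -0.57 in H929 (adjusted p = 0.00266) and 0.32 in KMS11 (adjusted p = 0.146). By the test of the difference, KMS11 minus H929, the response of MYC (-0.83, adjusted p = 0.00427) and KEAP1 (0.89, adjusted p = 0.00427) differed between the lines. NFE2L2 (adjusted p = 0.109) and BACH1 (adjusted p = 0.309) did not pass that test. Whether any regulator had a part in the responses of the transporters was not tested.

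The gene whose CPM, centred within each line on the log2 scale, followed each transporter most closely was sought among 11063 genes over the 8 libraries, which share treatment and library composition. The closest were RAP2B for SLC7A11 (Pearson's r = 0.9977), ALMS1 for SLC6A9 (0.9951), BTG2 for SLC1A4 (0.9997), HHAT for SLC38A2 (0.9962), TMEM65 for SLC38A1 (0.9953), MLYCD for SLC1A5 (0.9818), KMT2E for SLC7A1 (0.9939), EML2 for SLC7A5 (0.9927), OXCT2 for SLC3A2 (0.9895) and HIF1AN for SLC43A1 (0.9785). None of these was itself an amino acid transporter. These correlations are descriptions, each the highest of 11063, and carry no p.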

How the data were processed

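RNA of H929 and KMS11 cells was sequenced after depletion of ribosomal RNA with a stranded kit. The authors aligned reads to GRCh38 with STAR 2.5.2b and deposited, from RSEM 1.3.0, unnormalized expected counts and length-scaled TPM. FPKM values were not used. Samples were grouped by the line and treatment in their labels. The members and all gene lists were chosen with earlier results of these data known. All 10 transporters are named, with up to 4 other transporters by line and 5 regulators by size of change among genes past the threshold. ATF4, MYC, NFE2L2, BACH1 and KEAP1 are named apart from that rule.

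Expected counts were rounded and tested in R 4.3.3 with edgeR 4.0.16 (TMM scaling, filterByExpr at min.count 10 and min.total.count 15, quasi-likelihood F test, Benjamini-Hochberg adjustment over 13129 protein-coding genes of GENCODE release 44, in which 57392 of 58219 identifiers were found). All 10 members passed the filter. The SE is the log2 fold change divided by the square root of F. One fit had 4 group means and another had terms for line and treatment. The scripts were tested on simulated data. The paper describes the replicates as biological and the labels only number them, so p-values measure the spread between these libraries. Alternatives were DESeq2 1.42.0, other scalings, filters and features, limma 3.58.1 on log2(TPM + 1) and log2(TPM + 0.1), offsets for the trend of each library with GC content (lowess, span 0.3), a replicate block, each library left out and an adjusted p under 0.01.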

Additional observations from a re-analysis of the deposited data

Results flagged for a closer look

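In the edgeR interaction test, 3 transporters responded differently in H929 and KMS11. The difference in log2 fold change, KMS11 minus H929, was -1.57 for SLC7A11, -0.87 for SLC1A4 and -0.63 for SLC38A2. In H929, mean CPM in ethanol and in fluvastatin was 28.2 ± 4.53 and 142 ± 21.0 for SLC7A11 (SD, n = 2), 326 ± 55.4 and 693 ± 56.1 for SLC1A4, and 271 ± 36.0 and 663 ± 2.36 for SLC38A2. In KMS11, it was 18.1 ± 0.889 and 30.7 ± 6.85 for SLC7A11, 163 ± 6.30 and 190 ± 2.49 for SLC1A4, and 233 ± 7.76 and 368 ± 42.0 for SLC38A2. With 2 libraries in each group, no group was searched for a single library far from the others.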

How the results depend on the processing

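With 2 libraries a group, replicates differed by more than counting error, and SLC6A9 in KMS11 rested on 22 to 114 counts. Whether spread or depth limited the calls was not tested. Same-numbered deviations correlated at 0.695 in H929 but at -0.02 in KMS11, so that the numbers were not taken as pairs. With the replicate block, 8 members passed within H929, SLC7A5 (adjusted p = 0.0209) among them, beside 48.9% of all genes. Within KMS11, 4 members and 4 of the 30 other transporters passed, beside 12.5% of all genes. Across both lines, 1 member (SLC6A9) and 1 other transporter passed, beside 1.2% of all genes. In the difference between the lines 5 members passed, beside 32.2% of all genes. Between the lines in ethanol 7 members passed, beside 75.7% of all genes. Of the recomputed values of single members, 666 kept direction and side of the threshold, 66 lost the call, 49 gained one and 49 reversed. All reversals were of values not called in the edgeR fit of the report, but 8 of the reversed values themselves passed: with the GC offset, first without and then with the block, SLC7A5 in the difference (adjusted p = 0.000666 and 4.9e-05), SLC7A5 in ethanol (1.3e-05 and 9.99e-07) and SLC38A1 in ethanol (0.00845 and 0.0011), with the offset and block SLC1A5 within KMS11 (0.0191), and with limma at a pseudocount of 1 SLC6A9 in the difference (0.0469).

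The members past the threshold within H929 (7) were 4 at an adjusted p under 0.01 and 4 to 6 with a library left out. Within KMS11 (3) they were 0 in either limma fit on TPM, 6 with the GC offset, 8 with the GC offset and replicate block, 0 at an adjusted p under 0.01 and 0 to 4 with a library left out. Across both lines (5) they were 3 in either limma fit, 2 with the GC offset and block, 2 at an adjusted p under 0.01 and 2 to 5 with a library left out. In the difference (3) they were 8 with the GC offset, with or without the block, and 2 to 4 with a library left out. In ethanol (5) they were 9 with the GC offset, with or without the block, and 4 to 8 with a library left out. Other transporters were 8 to 10 within H929 with a library left out, 3 within KMS11 with DESeq2 or with no filter and 0 to 7 with a library left out, 7 across both lines with DESeq2 and 1 to 4 with a library left out, and 3 to 13 in the difference with a library left out. The cause of these moves was not tested.

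Reversed log2 values, GC offset first without and then with the block, were -0.0078 and -0.0077 (SLC7A5) and -0.19 and -0.19 (SLC1A5) within KMS11, -0.56 and -0.56 (SLC7A5) and -0.37 and -0.38 (SLC6A9) in the difference, and 0.52 and 0.52 (SLC7A5) and -0.20 and -0.20 (SLC38A1) in ethanol. The limma fits, with a pseudocount of 1 and then 0.1, gave -0.062 and -0.063 (SLC1A5) and -0.11 and -0.11 (SLC38A1) within KMS11, -0.12 and -0.13 (SLC7A5) and -0.85 and -0.22 (SLC6A9) in the difference, and 0.18 and 0.18 (SLC7A5), 0.25 and 0.28 (SLC7A1) and 0.24 and 0.24 (SLC38A2) in ethanol. These fits moved the median of all genes in ethanol to 0.315 and 0.464. DESeq2 and median-of-ratios scaling each gave -0.018 (SLC38A1, KMS11) and -0.029 (SLC7A5, difference), all annotated genes gave -0.0011 (SLC38A1, KMS11), and the block gave -0.0036 (SLC7A5, difference). With a library left out, ranges that crossed 0 were -0.10 to 0.27 (SLC1A5), -0.10 to 0.079 (SLC38A1) within KMS11, -0.16 to 0.063 (SLC43A1) across both lines, -0.25 to 0.25 (SLC7A5), -0.25 to 0.044 (SLC7A1), -0.17 to 0.64 (SLC6A9), -0.31 to 0.070 (SLC1A5) in the difference between the lines and -0.11 to 0.16 (SLC3A2) between the lines in ethanol.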
